A study of Homo sapiens with 6 samples.

Results

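The 9 genes described here encode the SKP2 ubiquitin ligase and the proteins that feed p27 into it. They were taken from the 27745 genes of the count table by their identifiers, without a threshold on any measured value. The choice was made with earlier results of these data known. The F-box protein SKP2 and its cofactor CKS1B recognise the substrate, SKP1, CUL1 and RBX1 form the body of the ligase, and CDC34 is a ubiquitin-conjugating enzyme that works with it. CDK2 phosphorylates p27, COPS5 is the catalytic subunit of the COP9 signalosome, which removes NEDD8 from cullins and has been described to carry p27 out of the nucleus, and UHMK1 is a kinase that phosphorylates p27 and promotes its nuclear export. All 9 were found and all 9 passed the filter on low counts, as 9 of 15372 genes tested.

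The samples were MDA-MB-231 cells, a human line of triple-negative breast cancer, which had been given 1 of 3 lentiviral constructs, with 2 biological replicates of each. The control samples received sh-TRC (CTR1 and CTR2), and the knockdown samples received sh-MIR100HG-1 (KD1-1 and KD1-2) or sh-MIR100HG-2 (KD2-1 and KD2-2), which are short hairpin RNAs (shRNAs) against the long noncoding RNA MIR100HG. All cells had lentiviral infection in common, no uninfected cells were compared, and 1 cell line was used, so that the replicates measure the spread between cultures of that line. RNA was measured, and neither p27 protein nor the activity of the ligase.

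p27, the product of CDKN1B, binds and inhibits complexes of cyclin with CDK2 and so holds cells in G1. When CDK2 and cyclin E phosphorylate p27, the SCF complex with SKP2 and CKS1B marks it with ubiquitin and the proteasome destroys it, which lets cells enter S phase. SKP2 is itself destroyed in G1 by the anaphase-promoting complex with its activator CDH1, and cullins need NEDD8 to be active, so the abundance of an mRNA is only 1 of several layers at which this ligase is set.

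Total counts per sample ranged from 43804736 to 64588388, and the members averaged between 1922.5 and 14682.8 counts per sample, so that spread between replicates rather than counting error limited their precision. MIR100HG averaged 50.2 ± 11.8 CPM (SD, n = 2) in control cells, 14.2 ± 1.41 under sh-MIR100HG-1 and 13.5 ± 4.35 under sh-MIR100HG-2 (SD, n = 2 each), where CPM are counts relative to library size after TMM normalization. Of the markers used to check the cell line, VIM had at least 1607 CPM and EGFR at least 403 CPM in every sample, and PGR at most 0.024. Of the markers expected to be low or absent, KRT8 had 709.8 to 1177.5 CPM and ERBB2 71.6 to 116.2 CPM, so these did not meet the expectation. CDH1, EPCAM and GATA3 had at most 7.05, 13.0 and 13.0 CPM, respectively. ESR1, which this line lacks, had 2.38 CPM in CTR2 and 2.79 in KD1-1, against 0.12 to 0.59 in the other samples, and FOXA1 followed it with 1.22 CPM in each of those libraries, against 0.024 to 0.16. The part that this had in any result below was not tested.

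The sequences of the agents are shown first because a shRNA can also act through its seed, bases 2 to 8 of the guide strand, on mRNAs with a matching site. The strand complementary to MIR100HG was taken as the guide, and capitals mark the seed.
sh-MIR100HG-1 guide: aTTTAAGTacaaacagaggaa
sh-MIR100HG-2 guide: tTTATTCTgtaggtcactctc
A site that pairs with the first seed lay in 19.2% of 13908 annotated 3′UTRs and one for the second in 20.3%. The 3′UTR of SKP2, of 2288 bases, contained neither, and so did those of CKS1B, CUL1, RBX1, CDK2, COPS5 and CDKN1B. The longest run of bases that any member shared with either shRNA target was 9.

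The members with a seed site were SKP1, UHMK1 and CDC34. Their sites are shown on the mRNA strand with the bases that pair with the seed in capitals, for SKP1 only 1 of the 2 per guide. Coordinates refer to GRCh37, and the sites lie in 3′UTR exons on the plus strand for UHMK1 and CDC34 and on the minus strand for SKP1.
UHMK1, sh-MIR100HG-1 site, chr1:162498129-162498135: ctaaaaaatgatACTTAAAgttccaggttt
UHMK1, sh-MIR100HG-1 site, chr1:162498846-162498852: atgtgaaagatcACTTAAAccaaagccagt
SKP1, sh-MIR100HG-1 site, chr5:133492535-133492541: ttgcttttgtggACTTAAAtgtgtctcttc
SKP1, sh-MIR100HG-2 site, chr5:133492656-133492662: acttgcatgtaaAGAATAAtttaactttta
CDC34, sh-MIR100HG-2 site, chr19:541560-541566: caccaccAGAATAAacttgccgagt
SKP1, with a 3′UTR of 8798 bases, had 2 sites for each guide. UHMK1, with 7081 bases, had 2 for sh-MIR100HG-1. CDC34, with 535 bases, had 1 for sh-MIR100HG-2. Whether any of them was bound was not measured.

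Several microRNAs are encoded within the bounds of MIR100HG, and their seeds were compared with the same 3′UTRs. Their mature sequences from RefSeq are shown with bases 2 to 8 in capitals, and no seed is shared among them.
miR-100-5p: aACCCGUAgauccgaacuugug
miR-125b-5p: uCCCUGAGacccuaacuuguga
let-7a-5p: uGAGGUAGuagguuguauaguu
Sites for them lay in 1.3%, 16.1% and 10.8% of the 3′UTRs, respectively. No member had a site for miR-100-5p or miR-125b-5p. SKP1 had 2 sites for let-7a-5p and CDC34 had 1, at chr19:541620-541626, with the sequence ttagacgacagaCTACCTCacggaggtttt.

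To ask whether the knockdown of MIR100HG changed the mRNA of the ligase, the 4 knockdown samples were compared with the 2 controls in edgeR's quasi-likelihood test over all genes. SKP2 was 2.42-fold higher, and CDC34 1.60-fold higher, while the genes for the body of the ligase, SKP1, CUL1 and RBX1, lay within 1.17-fold of the control. CKS1B, the cofactor of SKP2, fell into separate levels within each knockdown group. By this test 0 of 15372 genes passed an adjusted p of 0.05, so that no member is a call at that threshold. MIR100HG, the target of both shRNAs, did not pass it either, with a log2 fold change of -1.86 and an adjusted p of 0.381. At an unadjusted p under 0.05 stood 2 of the 9 members, SKP2 and CDC34, both higher, against 7.68% of all genes (3.23% in the higher and 4.44% in the lower direction). In all, 1180 genes stood under it, and the likelihood ratio test of edgeR called 109 genes after adjustment and DESeq2 130.

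**Figure D1:**
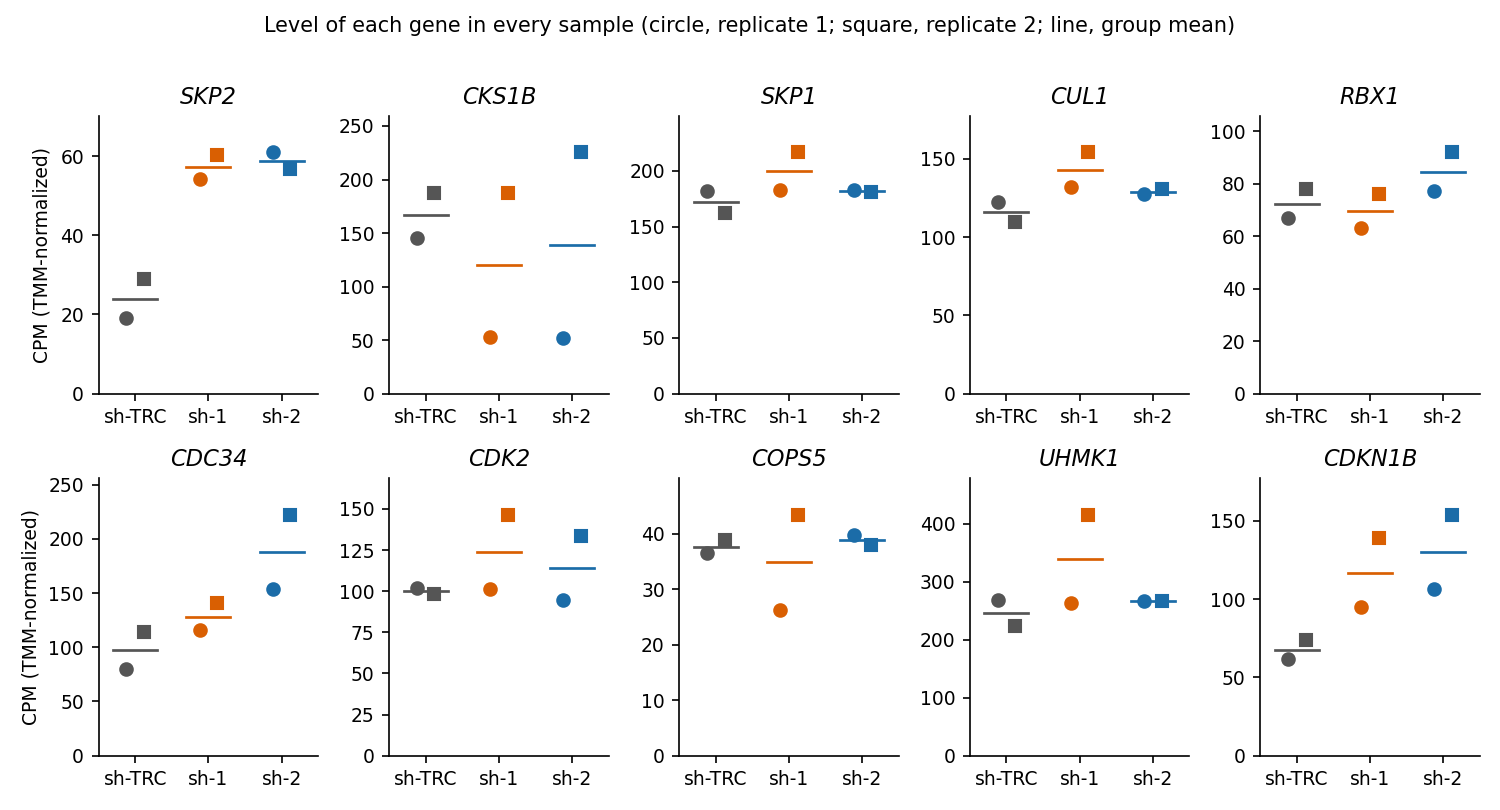
Level of the 9 members and of CDKN1B in every sample, in TMM-normalized CPM on a linear axis from 0, for sh-TRC, sh-MIR100HG-1 (sh-1) and sh-MIR100HG-2 (sh-2). Circles are replicate 1, squares replicate 2 and lines group means. SKP2 lies at 19.1 and 28.9 CPM in the controls and at 54.2 to 61.0 CPM in the knockdown samples, and CKS1B splits within each knockdown group.

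SKP2 (ENSG00000145604.15_1) is the F-box protein that gives this ligase its name and its choice of substrate. The gene lies on the plus strand of chromosome 5 of GRCh37, from 36152091 to 36184421, and no exon of another counted gene overlaps its exons. It had 19.1 CPM in CTR1 and 28.9 CPM in CTR2. The sh-MIR100HG-1 samples had 54.2 CPM (KD1-1) and 60.2 CPM (KD1-2). The sh-MIR100HG-2 samples had 61.0 CPM (KD2-1) and 56.9 CPM (KD2-2). The groups did not overlap, and the lowest knockdown sample lay well above the highest control, while the controls were further apart (1.51-fold) than the replicates of either shRNA (1.11-fold and 1.07-fold).

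The log2 fold change of SKP2 was 1.28 (standard error 0.23, 95% confidence interval 0.75 to 1.80) for the mean of both shRNAs (unadjusted p = 4.8e-04, adjusted p = 0.381, edgeR's quasi-likelihood test). For sh-MIR100HG-1 alone it was 1.25 (interval 0.67 to 1.84, adjusted p = 0.714), and for sh-MIR100HG-2 alone 1.3 (interval 0.71 to 1.88, adjusted p = 0.406). The shRNAs differed from each other by 0.04 (interval -0.53 to 0.62) in SKP2. A two-sided exact permutation test over samples gave p = 0.0667, the smallest that 4 samples against 2 allow. Leaving out CTR1, the lower control, moved the log2 fold change to 1.01, and leaving out CTR2 moved it to 1.60. Whether SKP2 passed depended on the test and the filter. Its adjusted p was 0.0027 by edgeR's likelihood ratio test, 3.54e-04 by DESeq2 and 3.10e-04 by the quasi-likelihood test without the filter on low counts. The fit without the filter gave SKP2 a similar fold change with a larger standard error, 0.26 against 0.23. The smaller p of that fit therefore came from more degrees of freedom, not from a clearer difference. SKP2, CDKN1B, CCNF and PTK6 are among the genes that the study chose for its display of cell cycle genes from these same samples, so their direction here is not independent evidence.

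CKS1B (ENSG00000173207.12_1, chromosome 1, 154947129 to 154951725, plus strand) encodes the small adaptor that lets SKP2 hold phosphorylated p27. It had 145.7 CPM in CTR1 and 187.3 CPM in CTR2. In the sh-MIR100HG-1 group it had 52.9 CPM in KD1-1 and 187.5 CPM in KD1-2. In the sh-MIR100HG-2 group it had 52.2 CPM in KD2-1 and 225.3 CPM in KD2-2. One sample of each shRNA therefore lay far below both controls and the other at or above the higher control, with 3.54-fold and 4.32-fold between replicates against 1.29-fold between the controls.

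The group means of CKS1B do not describe any sample. Its log2 fold change was -0.37 (standard error 0.59, 95% confidence interval -1.72 to 0.98) for the mean of both shRNAs (adjusted p = 0.914, edgeR's quasi-likelihood test). That interval spans both a loss and a gain of the size seen for CDC34, so no direction can be given. Without KD1-1 the log2 fold change of sh-MIR100HG-1 turned from -0.47 to 0.17, and without KD2-1 that of sh-MIR100HG-2 turned from -0.26 to 0.44. Without KD2-2, CKS1B was lower by the mean of both shRNAs (log2 fold change -1.08, unadjusted p = 0.037, adjusted p = 0.725 by edgeR's quasi-likelihood test).

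The low samples, KD1-1 and KD2-1, carry the replicate number 1 in both groups. Chosen after the values of CKS1B had been seen, the same arrangement was counted across the 11844 genes with a mean of at least 100 counts. In 789 of them (6.66%) KD1-1 and KD2-1 both lay below the other 4 samples, and in 17 they did so by at least 2-fold. CKS1B stood 6th by this gap, at 2.75-fold, behind OAT, NCAPH, APTX, SBDS and MFAP2. OAT, a mitochondrial enzyme of ornithine metabolism, had 24 CPM in KD1-1 and 20.7 CPM in KD2-1 against at least 120.7 CPM in every other sample. NCAPH, a condensin subunit, had 17.5 CPM and 17.2 CPM in the same samples against at least 61.6 CPM. CKS1B also has 7 named pseudogenes, and the way in which reads that match several places were counted is not given in the sources used here. The cause of the split was not tested.

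**Figure D2:**
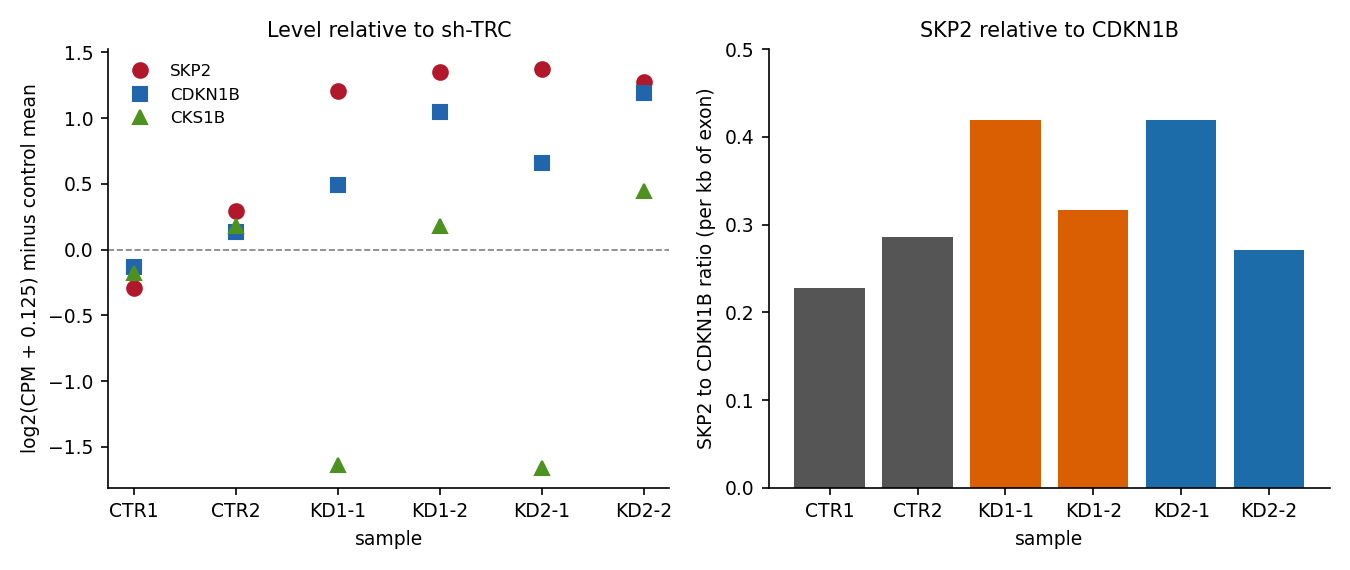
Left, level of SKP2, CDKN1B and CKS1B in each sample as log2 CPM, with the pseudocount given on the axis, minus the mean of the 2 controls. Right, ratio of SKP2 to CDKN1B, each scaled to exon length, on an axis from 0, with grey bars for sh-TRC, orange for sh-MIR100HG-1 and blue for sh-MIR100HG-2. SKP2 and CDKN1B lie above the controls in all 4 knockdown samples, CKS1B is low in KD1-1 and KD2-1, and the ratio in KD2-2 (0.271) lies below that in CTR2 (0.286).

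The promoter of CKS1B is shown because its mRNA was the one that varied most. In the RefSeq promoter table, built on GRCh38.p14, with 250 bases before and 50 after each start, 7 of the 9 members had an entry. Each motif was searched on both strands, and the capitals mark it.
CKS1B, first base 54 before the start: gagccaaacggaCCAATaggaagtgcgggc
CKS1B, first base 30 before the start: gcgggcggcgtgTTTGAAagcgaggccaaa
SKP2, first base 213 before the start: tcagccgtagcgCCGCCCgcttccgcctcc
The CKS1B promoter contained 5 matches to CCAAT, the letters of the box that the factor NF-Y binds. At least 5, a cut equal to the count in CKS1B itself, occurred in 0.36% of 35116 promoters in the table. The CKS1B promoter also contained TTTGAA, the letters of the cell cycle homology region found in many genes expressed in G2 and mitosis, which 15.2% of all promoters held. Among the other 6 members with an entry only CUL1 held CCAAT (34.6% of all promoters) and none held TTTGAA. The SKP2 window contained the GC box GGGCGG on the reverse strand, as did at least 1 strand of all 7 members against 45.0% of all promoters. No member held TTTCCCGC, TTTCGCGC, TTTGCCGC or TTTGGCGC, forms of the E2F site found in 3.3% of promoters, and SKP1 and UHMK1 held the ETS letters CCGGAAG (10.3%). Some members, such as UHMK1, had several promoters in the table and were counted when any of them held a motif. The percentages are of single promoters, so the counts of members and the percentages are unlike measures. These matches are descriptions of the sequence only.

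The body of the ligase consists of the cullin CUL1, the adaptor SKP1, which joins CUL1 to the F-box protein, and the RING protein RBX1, which receives the charged conjugating enzyme. CUL1 had 122.3 and 109.4 CPM in the controls, 132.0 and 154.0 CPM under sh-MIR100HG-1, and 127.3 and 130.4 CPM under sh-MIR100HG-2. All knockdown samples lay above both controls, but the closest were only a few CPM apart, and the log2 fold change was 0.23 (standard error 0.18, 95% confidence interval -0.18 to 0.64). SKP1 had 181.6 and 161.7 CPM in the controls and 181.4 to 216.5 CPM in the knockdown samples, which touched the higher control, with a log2 fold change of 0.15 (interval -0.26 to 0.56). RBX1 had 67.1 and 77.9 CPM in the controls and 63.2 to 91.9 CPM in the knockdown samples, on both sides of the controls, with a log2 fold change of 0.08 (interval -0.36 to 0.53). These intervals leave room for changes of less than 1.6-fold, which this design could not show for any of the 3. SKP1 shares 381 exon bases with other genes, TCF7 on the other strand and ENSG00000272772 on the same strand, and the strand setting of the counting is not given in the sources used here.

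CDC34 (ENSG00000099804.8_1, chromosome 19, 531712 to 542092, plus strand) is the conjugating enzyme that builds ubiquitin chains on substrates of SCF ligases. It had 80.2 CPM in CTR1 and 114.3 CPM in CTR2. The sh-MIR100HG-1 samples had 115.7 CPM (KD1-1) and 140.8 CPM (KD1-2). The sh-MIR100HG-2 samples had 154.1 CPM (KD2-1) and 222.4 CPM (KD2-2). The groups did not overlap, but KD1-1 was almost level with CTR2, and the sh-MIR100HG-2 samples were above all others.

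The log2 fold change of CDC34 was 0.68 (standard error 0.24, 95% confidence interval 0.12 to 1.23) for the mean of both shRNAs (unadjusted p = 0.0228, adjusted p = 0.596, edgeR's quasi-likelihood test). For sh-MIR100HG-1 alone it was 0.40 (interval -0.23 to 1.02), and for sh-MIR100HG-2 alone 0.95 (interval 0.32 to 1.58). The difference between the shRNAs, 0.55 (interval -0.07 to 1.18), had an unadjusted p of 0.0758 in the same test, so a difference between them was not shown. The two-sided exact permutation test gave p = 0.133. Leaving out CTR1, KD1-2 or KD2-2 moved the log2 fold change to 0.44, 0.60 or 0.52. The unadjusted value of edgeR's test was then 0.174, 0.0612 or 0.0636, so each of these libraries decided whether CDC34 stood under 0.05. The guide with a seed site in the 3′UTR of CDC34 is that of sh-MIR100HG-2, and the part of that site in these values was not tested.

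CDK2, COPS5 and UHMK1 act on p27 outside the ligase. CDK2 had 102.1 and 98.2 CPM in the controls, 101.1 and 146.6 CPM under sh-MIR100HG-1, and 94.4 and 133.5 CPM under sh-MIR100HG-2. One sample of each shRNA was level with the controls and the other was higher, and the log2 fold change was 0.25 (interval -0.28 to 0.78). COPS5 had 36.5 and 38.8 CPM in the controls and 26.2 to 43.4 CPM in the knockdown samples, with both ends of that range in the sh-MIR100HG-1 group and a log2 fold change of -0.03 (interval -0.57 to 0.50). UHMK1 had 268.3 and 223.0 CPM in the controls and 263.5 to 267.6 CPM in 3 knockdown samples, with KD1-2 apart at 415.9 CPM, and a log2 fold change of 0.29 (interval -0.22 to 0.81). In all 3 genes the knockdown samples overlapped the controls. CDK2 shares 89 exon bases with PMEL on the other strand, and COPS5 shares 327 with CSPP1 on the other strand and PPP1R42 on the same strand.

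**Figure D3:**
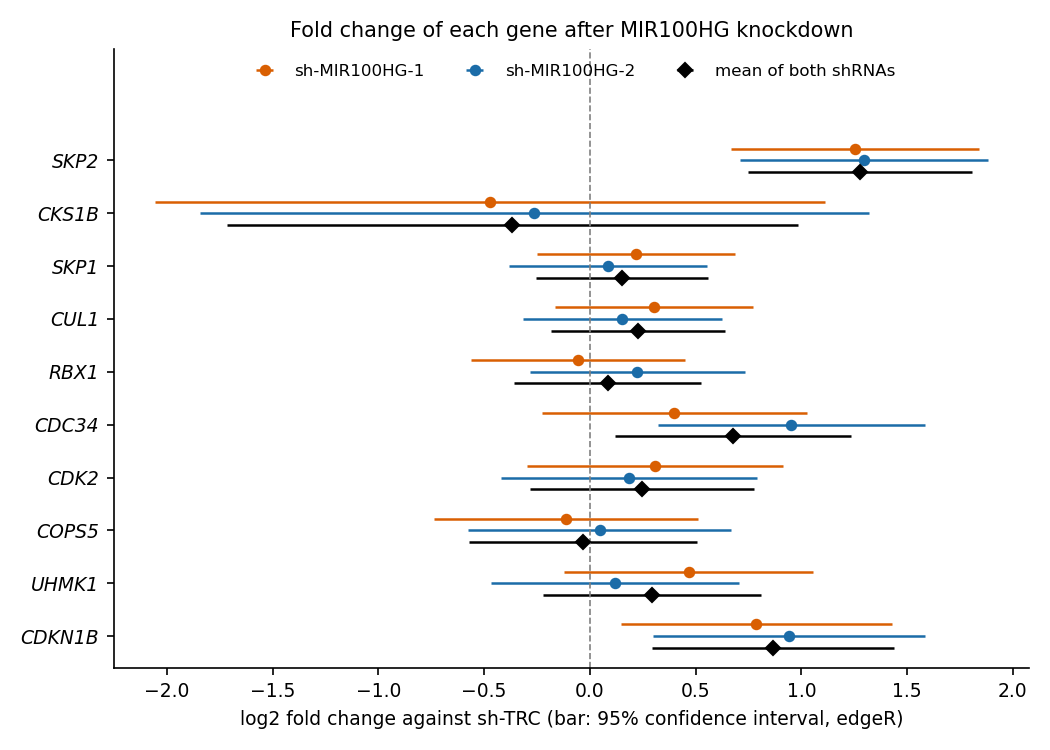
Log2 fold change against sh-TRC of the 9 members and of CDKN1B, for sh-MIR100HG-1 (orange circles), sh-MIR100HG-2 (blue circles) and the mean of both (black diamonds), with 95% confidence intervals from edgeR's quasi-likelihood fit. The intervals of SKP2 and CDKN1B lie above 0 for each shRNA, that of CDC34 for sh-MIR100HG-2 and the mean, and those of the other members cross 0, with CKS1B the widest.

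Across the members the median log2 fold change was 0.23, against -0.04 over all genes tested, and 7 of 9 were above 0. All 4 knockdown samples lay above both controls for 3 members, SKP2, CUL1 and CDC34, and below both for 0, against 8.4% and 9.08% of all genes (17.5% in either direction). With sh-MIR100HG-1 alone 1 member, SKP2, had an unadjusted p under 0.05, against 6.87% of all genes (3.1% higher, 3.77% lower). With sh-MIR100HG-2 alone SKP2 and CDC34 did, against 8.86% (3.71% higher, 5.15% lower). Between the shRNAs 0 members did in edgeR's quasi-likelihood test, against 9.45% (3.34% higher, 6.12% lower). Both shRNAs were compared with the same controls, so their values are not independent of each other.

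To compare levels between genes, CPM were divided by the exon length in kilobases. In control cells CKS1B had the highest level, 71.2 ± 12.6 CPM per kb (SD, n = 2), and CDC34 followed with 50.1 ± 12.4. CUL1 had 32.7 ± 2.57, UHMK1 26.6 ± 3.47, CDK2 25.7 ± 0.71 and RBX1 23.4 ± 2.47 CPM per kb. SKP1 had 13.4 ± 1.1 CPM per kb, SKP2 6.25 ± 1.79 and COPS5 4.84 ± 0.21. CKS1B and CDC34 differed by less than the sum of their SDs, as did UHMK1 and CDK2, CDK2 and RBX1, and SKP2 and COPS5, while SKP1 stood apart from both of its neighbours.

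SKP2 was thus among the least abundant mRNAs of its own ligase in control cells, at the 59.5th percentile of all genes tested, where CKS1B was at the 96.5th. With knockdown it reached 14.9 ± 1.11 CPM per kb under sh-MIR100HG-1 and 15.4 ± 0.76 under sh-MIR100HG-2 (SD, n = 2 each), next to the 15.6 ± 1.86 and 14.3 ± 0.07 of SKP1. The lengths are those of all annotated exons, so genes with long optional 3′ ends, such as SKP1 with 12771 bases, are understated. COPS5 has 7779 bases of annotated exons, though its 3′UTR in the transcript searched for seed sites has 154. It may be understated too, so its place below SKP2 is uncertain.

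**Figure D4:**
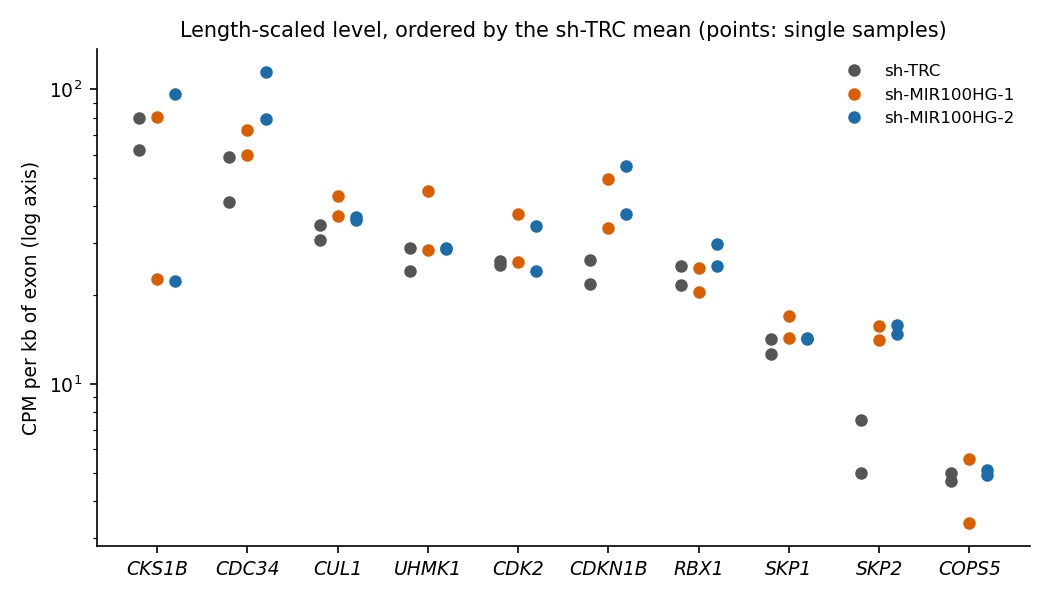
Level of each member and of CDKN1B in CPM per kb of exon, on a log axis, ordered by the mean of the sh-TRC samples. Points are single samples, grey for sh-TRC, orange for sh-MIR100HG-1 and blue for sh-MIR100HG-2. SKP2 is second to last in the control at 6.25 CPM per kb and is higher in all 4 knockdown samples, at 14.1 to 15.9 CPM per kb, where SKP1 has 14.2 to 17.0.

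CDKN1B (ENSG00000111276.10_2), the gene for p27 itself, was compared with SKP2 because the protein of one is the substrate of the other. CDKN1B had 61.5 and 74.0 CPM in the controls, 94.8 and 139.1 CPM under sh-MIR100HG-1, and 106.4 and 154.0 CPM under sh-MIR100HG-2. It was higher in all 4 knockdown samples, with a log2 fold change of 0.87 (standard error 0.25, 95% confidence interval 0.29 to 1.44, unadjusted p = 0.00805, adjusted p = 0.503 by edgeR's quasi-likelihood test). The mRNA of the substrate and that of SKP2 were thus both higher in the same samples.

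The log2 ratio of SKP2 to CDKN1B was -1.68 in CTR1 and -1.35 in CTR2. The sh-MIR100HG-1 samples had -0.80 (KD1-1) and -1.21 (KD1-2), and the sh-MIR100HG-2 samples -0.80 (KD2-1) and -1.43 (KD2-2). KD2-2 lay below the higher control, so the groups overlapped. The mean was higher by 0.45 in the knockdown samples, and a two-sided exact permutation test gave p = 0.2, against a smallest possible p of 0.0667. In the samples with the highest ratio, KD1-1 and KD2-1, CKS1B was low and CDKN1B was nearest to the controls.

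Among the 9 described substrates of SKP2, p27 included, 1 was higher and 1 lower at an unadjusted p under 0.05, which is 22.2% against 7.68% of all genes (3.23% higher, 4.44% lower). RBL2, the gene of the pocket protein p130, had 19.8 and 30.9 CPM in the controls and 11.4 to 18.5 CPM in the knockdown samples, which all lay below both controls. Its log2 fold change was -0.79 (standard error 0.26, unadjusted p = 0.0138, adjusted p = 0.554 by edgeR's quasi-likelihood test). CDKN1A, the gene for the inhibitor p21 and singled out after its values had been seen, differed between the shRNAs by 0.91 on the log2 scale (unadjusted p = 0.00584 in that test), with 126.5 and 186.4 CPM under sh-MIR100HG-1 against 305.1 and 284.6 CPM under sh-MIR100HG-2, and 157.3 and 194.6 CPM in the controls. The median log2 fold change of the substrates was 0.17.

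Other ligases have been described for p27, and of their 6 genes 1 was higher and 0 lower by the same measure, which is 16.7% against the same 7.68%. CUL4A, the scaffold of the CRL4 ligase, had 97.8 and 103.1 CPM in the controls and 109.1 to 153.2 CPM in the knockdown samples (log2 fold change 0.49, unadjusted p = 0.0397). Its knockdown samples lay above both controls.

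Upstream of SKP2, the 18 genes of the anaphase-promoting complex with CDH1 and its inhibitor EMI1 had a median log2 fold change of 0.01, and 1 was higher, a share of 5.56% that lies below the 7.68% of all genes. That was CDC23, a subunit, with 46.2 and 49.7 CPM in the controls and 55.4 to 71.4 CPM in the knockdown samples (log2 fold change 0.45, unadjusted p = 0.0495). Of the 13 genes that attach NEDD8 to cullins or control its use, 0 passed an unadjusted p of 0.05 in edgeR's quasi-likelihood test. The smallest p was that of UBA3, the catalytic subunit of the NEDD8-activating enzyme, with a log2 fold change of -0.47 (unadjusted p = 0.0645), and the next was that of CAND2, with -0.79 (unadjusted p = 0.128) at no more than 1.4 CPM. Of the 10 genes of the COP9 signalosome 0 passed, the smallest p values being those of COPS7B (log2 fold change 0.50, unadjusted p = 0.0658) and COPS3 (0.25, unadjusted p = 0.228).

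Of the 13 kinases and cyclins that act on p27, among which CDK2 and UHMK1 are counted, 1 was higher and 1 lower, which is 15.4% against 7.68% of all genes. PTK6, a tyrosine kinase that phosphorylates p27, had 24.9 and 29.5 CPM in the controls and 14.4 to 18.1 CPM in the knockdown samples, all below both controls. Its log2 fold change was -0.74 (standard error 0.21, unadjusted p = 0.00712, adjusted p = 0.488 by edgeR's quasi-likelihood test), with -0.73 and -0.74 for the separate shRNAs. LYN, a SRC family kinase described to phosphorylate the same inhibitor, had 37.9 and 41.9 CPM in the controls and 44 to 64.9 CPM in the knockdown samples, with a log2 fold change of 0.47 (unadjusted p = 0.0484).

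The 12 paralogs of the members had a median log2 fold change of -0.05, with 1 higher and 1 lower at an unadjusted p under 0.05, which is 16.7% against 7.68% of all genes. The lower gene was CUL9, a large cullin, with 47.2 and 47.0 CPM in the controls and 19.5 to 40.4 CPM in the knockdown samples (log2 fold change -0.67, unadjusted p = 0.0299), and the higher was CUL4A, described above. CKS2, the close relative of CKS1B, had 111.7 and 117.4 CPM in the controls and 89.3 to 102.6 CPM in the knockdown samples. It lay below both controls in all 4 without the split seen in CKS1B, with a log2 fold change of -0.26 (unadjusted p = 0.157); it was singled out after its values had been seen.

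Of 9 transcription factors described to drive or repress SKP2 or CDKN1B, 0 passed an unadjusted p of 0.05 in edgeR's quasi-likelihood test. The smallest p values belonged to E2F3, with a log2 fold change of 0.41 (unadjusted p = 0.0532), and SP1, with 0.33 (unadjusted p = 0.0942), and both lay above the controls in every knockdown sample. Of 8 genes of S phase and mitosis 0 passed in the knockdown comparison by that test, with a median log2 fold change of 0.01. TOP2A and MKI67 had the smallest p values, with log2 fold changes of -0.28 and 0.22. Between the shRNAs 3 of these 8 were lower with sh-MIR100HG-2 at an unadjusted p under 0.05, namely TOP2A, MKI67 and CDK1, against 6.12% of all genes. CDK1, the mitotic kinase and singled out after its values had been seen, had 122.5 and 143.8 CPM under sh-MIR100HG-1 and 67.8 and 55.1 CPM under sh-MIR100HG-2. SKP2 differed between the same groups by 0.04 on the log2 scale, with the interval given above. The share of cells in each phase of the cell cycle and the level per cell cannot be told apart in such bulk samples.

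SKP2 was then compared with the other F-box genes, which compete for the same SKP1 and CUL1. Of 65 F-box genes listed 59 were tested, and 5 were higher and 3 lower at an unadjusted p under 0.05, which is 13.6% against 7.68% of all genes. SKP2 had the highest log2 fold change of the 59, and the median was -0.02. FBXW7, the receptor for cyclin E and MYC, had 31.4 and 26.2 CPM in the controls and 49.1 to 58.9 CPM in the knockdown samples (log2 fold change 0.86, standard error 0.20, unadjusted p = 0.00235, adjusted p = 0.446 by edgeR's quasi-likelihood test). FBXO10 had 4.1 and 5.6 CPM in the controls and 6.3 to 12 CPM in the knockdown samples (log2 fold change 0.83). The other higher genes, named after their values had been seen, were CCNF, which encodes cyclin F (0.79), and FBXO45 (0.64). All knockdown samples of these genes lay above both controls.

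The lower F-box genes were FBXO44 (log2 fold change -1.0), FBXO2 (-0.96) and FBXO27 (-0.53), and the products of FBXO2 and FBXO27 recognise glycoproteins. FBXO44 had 8.5 and 7.9 CPM in the controls and 2.8 to 5.0 CPM in the knockdown samples. FBXO2 had at most 3.7 CPM in any sample. FBXO27 had 39.4 and 44.8 CPM in the controls, and its knockdown samples, at 23.1 to 40.5 CPM, overlapped with them. Counted by the separation of the groups, 9 F-box genes lay above both controls in all 4 knockdown samples and 3 below, where 8.4% and 9.08% of all genes did.

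**Figure D5:**
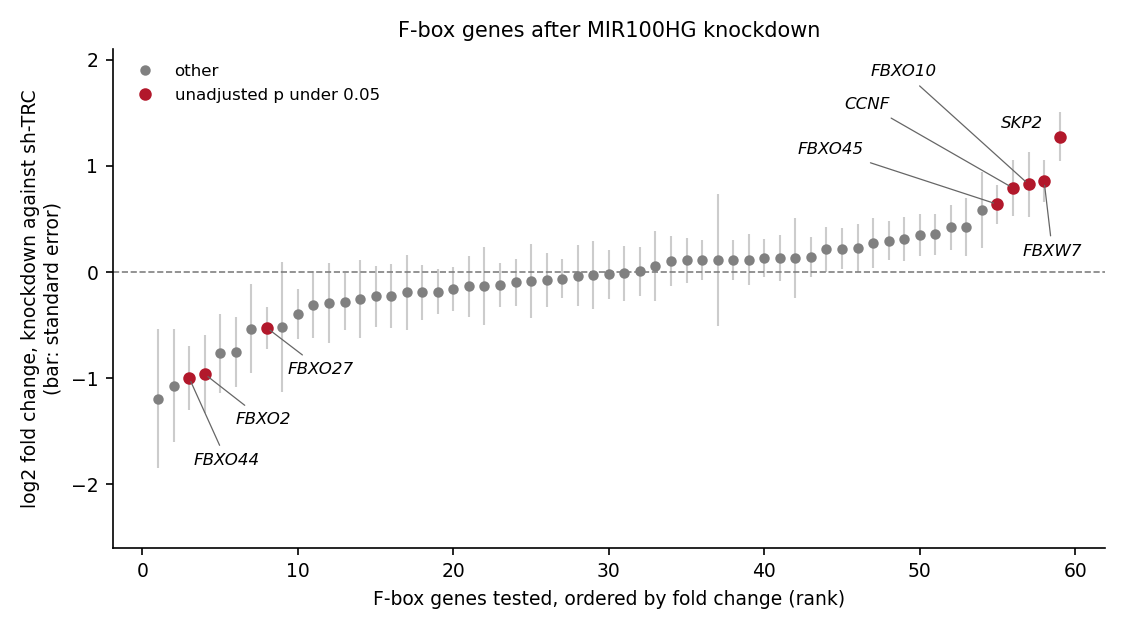
Log2 fold change of the 59 F-box genes tested, mean of both shRNAs against sh-TRC, ordered from lowest to highest, with standard errors as bars. Red points have an unadjusted p under 0.05 in edgeR's quasi-likelihood test. SKP2 is the last point at 1.28, and 4 other genes above 0 and 3 below 0 are red.

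The genes most like SKP2 across the 6 samples were sought by Pearson's r of log2 CPM among 9507 genes with a mean of at least 10 CPM, as a description, since all samples share the same split into control and knockdown. ANAPC1, a subunit of the anaphase-promoting complex, came first (r = 0.994), followed by SLC10A3, AP2B1, LARP4B and ATP5MJ (r of 0.986 to 0.987), and 47 genes had r above 0.95. ANAPC1 went from 55.8 and 60.4 CPM in the controls to 68.3 to 71.9 CPM in the knockdown samples, a log2 fold change of 0.28. Their changes were thus smaller than that of SKP2, from 0.16 to 0.46 on the log2 scale. Of the other members CDC34 was the nearest to SKP2 (r = 0.783) and CKS1B the farthest (r = -0.303). CDKN1B had r = 0.875 and MIR100HG -0.878.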

How the data were processed

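RNA-seq of 6 samples of MDA-MB-231 cells was used. The authors trimmed barcodes, mapped reads to GRCh37 with STAR (2.5.2a per the submitters' processing notes) and the GENCODE annotation, and assigned them to exons and genes with FeatureCounts. The deposited values are raw counts per gene. The setting for strand and for reads that match several places is not given in the sources used here.

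Following the stated filter, 12373 genes that stayed under 5 counts in 3 or more samples were left out, and 15372 entered the test. TMM normalization and the quasi-likelihood test of edgeR 4.0.16 (R 4.3.3) were applied to 1 model of 3 groups, which left 3 residual degrees of freedom beside a prior of 5.37. Adjusted p-values are Benjamini-Hochberg values over all 15372 genes. Fold changes are for the mean of both shRNA groups against sh-TRC unless an shRNA is named. The standard error is the log2 fold change divided by the square root of F, and intervals use the total degrees of freedom, 8.37. Single values were compared by exact permutation tests of 4 against 2 samples, with 15 possible arrangements. The fit was also run on simulated counts drawn independently for each sample. These lacked the likeness between same-numbered samples described below, so they do not show how the fit behaves with it.

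Named were MIR100HG, the members, CDKN1B, of each gene list the genes at an unadjusted p under 0.05 or else those with the smallest p, the 3 highest and 3 lowest F-box genes among those at an unadjusted p under 0.05, and the 5 genes most correlated with SKP2 on the log2 CPM scale. The members and lists were chosen with earlier results of these data known. Seed sites were searched in the 3′UTRs of GENCODE transcripts on GRCh37, and promoter motifs in the RefSeq table (GRCh38.p14). Alternatives were edgeR's likelihood ratio test, DESeq2, RLE normalization, other filters, a replicate block, leaving out each sample and, for the ratio, another pseudocount. Gene lists were described by counts and medians only.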

Additional observations from a re-analysis of the deposited data

How the results depend on the processing

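The test and the filter decided how many genes passed an adjusted p of 0.05. Against 0 by edgeR's quasi-likelihood test in every comparison, its likelihood ratio test called 109 genes for both shRNAs, 34 for sh-MIR100HG-1, 121 for sh-MIR100HG-2 and 91 between the shRNAs. DESeq2 called 130, 66, 167 and 103, and the quasi-likelihood test without the filter, on 21349 genes, called 392, 227, 517 and 679. Leaving out each sample gave 0 to 0, 0 to 3, 0 to 4 and 0 to 7. RLE normalization, a stricter filter of 10 counts and a fit of only 2 groups for the knockdown left the count at 0. SKP2 passed in the knockdown comparison by the likelihood ratio test (log2 fold change 1.27), by DESeq2 (1.29) and without the filter (1.27), and leaving out samples moved it from 1.01 to 1.60. Of the calls of the quasi-likelihood test without the filter, CDKN1B (adjusted p of 0.0323) and, with sh-MIR100HG-2, CDC34 (adjusted p of 0.0248) were also part. For SKP2 the smaller p of that fit came from its degrees of freedom, as described above, with a larger standard error than in the main fit. Of 530 values for single genes under the alternatives, 497 kept their direction and side of the threshold, 12 passed it, and 21 changed sign, all on leaving out 1 sample. Those ranges were, for both shRNAs, -0.019 to 0.20 for RBX1 and -0.24 to 0.13 for COPS5. With sh-MIR100HG-1 they were -0.21 to 0.074 for RBX1, -1.66 to 0.17 for CKS1B and -0.53 to 0.20 for COPS5, and with sh-MIR100HG-2 -0.0080 to 0.26 for UHMK1, -1.68 to 0.44 for CKS1B and -0.092 to 0.41 for CDK2. Between the shRNAs they were -0.031 to 0.13 for SKP2, -1.20 to 1.41 for CKS1B, -0.16 to 0.58 for COPS5, -0.14 to 0.48 for CDKN1B, -0.25 to 0.0070 for SKP1, -0.39 to 0.19 for CDK2 and -0.64 to 0.033 for UHMK1. The log2 ratio of SKP2 to CDKN1B stayed higher in the knockdown samples, by 0.29 to 0.62. The samples share replicate numbers, but same-numbered samples deviated together only between the shRNA groups (correlation 0.497, against -0.213 and 0.022 with the controls). The main model held the group only, so the numbers were not taken as pairs. In the comparison between the shRNAs, where same-numbered samples did deviate together, its p-values leave that likeness out. By Spearman's correlation of log2 CPM, CTR1 was nearer to KD1-1 (0.9895) than to CTR2 (0.9816). CTR2 was nearer to KD2-1 (0.9857) than to CTR1, and the source of this likeness across groups was not tested. A fit with the replicate block called 0 genes and gave SKP2 a log2 fold change of 1.3 for both shRNAs. It moved CKS1B from -0.37 to -0.74 (-0.81 and -0.67 for the separate shRNAs), still past no threshold, and put 1 member, CDC34, under an unadjusted p of 0.05 between the shRNAs against 0 without it. A block with the control numbers crossed, added after the data were seen, called 0 genes. With 2 samples in a group, no sample could be checked as an outlier. Changes well under 2-fold were beyond what the spread allowed to show, and larger ones could also fail to pass. MIR100HG did not pass by edgeR's quasi-likelihood test, with a log2 fold change of -1.86 and an adjusted p of 0.381.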
